A study of Mus musculus with 9 samples.

Results

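H19, Dlk1, Meg3, Rian, Mirg, Peg3, Mest, Plagl1, Ndn and Grb10 are imprinted genes that are grouped here as a growth network. These 10 genes were matched by symbol to the Ensembl identifiers of the deposited count files, and all 10 were found among the 38293 genes listed for GAS and the 46078 genes listed for the cultured cells. GAS is the mouse gastrocnemius muscle, MB are primary myoblasts, the precursor cells of muscle fibers, and MT are the myotubes into which MB had differentiated over 3 days in differentiation medium. All samples came from C57BL/6 mice, and the study's methods describe the mice of its muscle samples as females aged between 8 and 12 weeks. RNA was sequenced from 3 GAS samples, 2 MB samples and 2 MT samples, the cultured controls having received PBS, and from 2 samples of MB that had received sodium-L-lactate at 10 mM. The labels call the samples of a group biological replicates and do not tie cultures to animals. The comparisons address the expression of these genes before and after differentiation, with and without added lactate, and in mature muscle.

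An imprinted gene is transcribed mainly from the copy inherited from the mother or mainly from that inherited from the father, according to DNA methylation set in the germ line. Many imprinted genes act on growth, and a number of them are high in embryonic tissues and decline after birth. In muscle, H19 and its neighbor Igf2, which encodes a growth factor, are well known for their induction during myoblast differentiation, and Plagl1 encodes a zinc finger transcription factor known to bind and regulate several other imprinted genes. C57BL/6 is an inbred strain, so the counts do not tell the parental copies apart.

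The 4 noncoding RNAs of the network, and Mest among the coding genes, are hosts of microRNAs. On the strand of these 5 genes lie 21 microRNA genes with 39 mature arms in the RefSeq annotation (GRCm38.p6, the same assembly as mm10), of which 26 arms lie in Mirg, 6 in Rian, 3 in Meg3, 2 in H19 and 2 in Mest. The arms of H19, Meg3 and Mest follow, written from 5′ to 3′, because they are the small products of transcripts whose levels are described here. Capitals mark the seed, bases 2 to 8, with which a microRNA pairs to its targets.
miR-675-5p (H19, exon, chr7:142577112-142577133, minus strand): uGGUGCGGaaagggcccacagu
miR-675-3p (H19, exon, chr7:142577078-142577099, minus strand): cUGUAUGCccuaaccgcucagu
miR-335-5p (Mest, intron, chr6:30741314-30741336, plus strand): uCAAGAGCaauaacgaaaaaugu
miR-335-3p (Mest, intron, chr6:30741354-30741375, plus strand): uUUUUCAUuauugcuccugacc
miR-1906 (Meg3, exon, chr12:109544588-109544609, plus strand): uGCAGCAGccugaggcagggcu
miR-770-5p (Meg3, exon, chr12:109563710-109563731, plus strand): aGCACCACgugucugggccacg
miR-770-3p (Meg3, exon, chr12:109563744-109563765, plus strand): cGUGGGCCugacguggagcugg

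No seed was shared among these 7 arms. Over the 39 arms there were 38 seeds, and the only one found more than once was GGUUGCC, in miR-453 and miR-496a-5p, which both lie in Mirg. The libraries were made to measure long RNA, so that the host transcripts and not the mature arms are described. The microRNA genes of H19, Mest and Meg3 had 0 counts in all 9 libraries. Those of H19 and Meg3 lie wholly within exons of their hosts on the same strand. A read there also lies in the host, so that these 0 counts do not measure the arms.

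The GAS libraries, prepared from poly(A) RNA, held between 19307793 and 19941574 counts. Those of cultured cells were made by Smart-seq2, which amplifies cDNA of whole transcripts, and held between 5198247 and 10839516 counts. A count of 3 corresponds to between 0.152 and 0.155 CPM (counts scaled to library size and normalized for library composition) in GAS and to between 0.234 and 0.533 CPM in cultured cells, a limit that covers counting error only. GAS was not tested against cultured cells, since the protocols differ and noncoding RNAs depend on them. MT replicate 1 stood apart, with counts for 28599 genes against 17965 in MT replicate 2 and between 15548 and 17315 in the MB libraries. The share of the ribosomal RNA gene CT010467.1 was 9.20% in MB replicate 1 and 13.8% in lactate-treated MB replicate 1, against at most 0.575% in the other cultured libraries. Of the markers of the labelled cell types, 5 of 5 myotube markers and 5 of the 5 tested among 6 adult muscle markers were higher in MT past the thresholds used below, and 3 of these 6 had no count in MB. Of 4 myoblast markers only Pax7 passed as lower in MT, Myf5 and Myod1 had a log2FC below 0 without passing (edgeR adjusted p = 0.280 and 0.0528), and Des, which is also expressed in myotubes, had a log2FC of 2.06 (edgeR adjusted p = 0.0794). The summed level of 7 fibroblast markers ranged from 14100 to 25200 CPM in MT and from 223 to 508 CPM in MB, and Lum and Dpt of this list were at 0 in MB. In GAS it ranged from 559 to 648 CPM. Most of the sum in MT came from Col1a1 (13700 and 1700 CPM) and Col3a1 (11000 and 12300 CPM). Dcn was at 427 and 106 CPM in MT, and Pdgfra, Lum, Dpt and Pi16 were each at most at 6.31 CPM. In bulk samples, fewer cells of a type and less RNA per cell cannot be told apart.

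**Figure D1:**
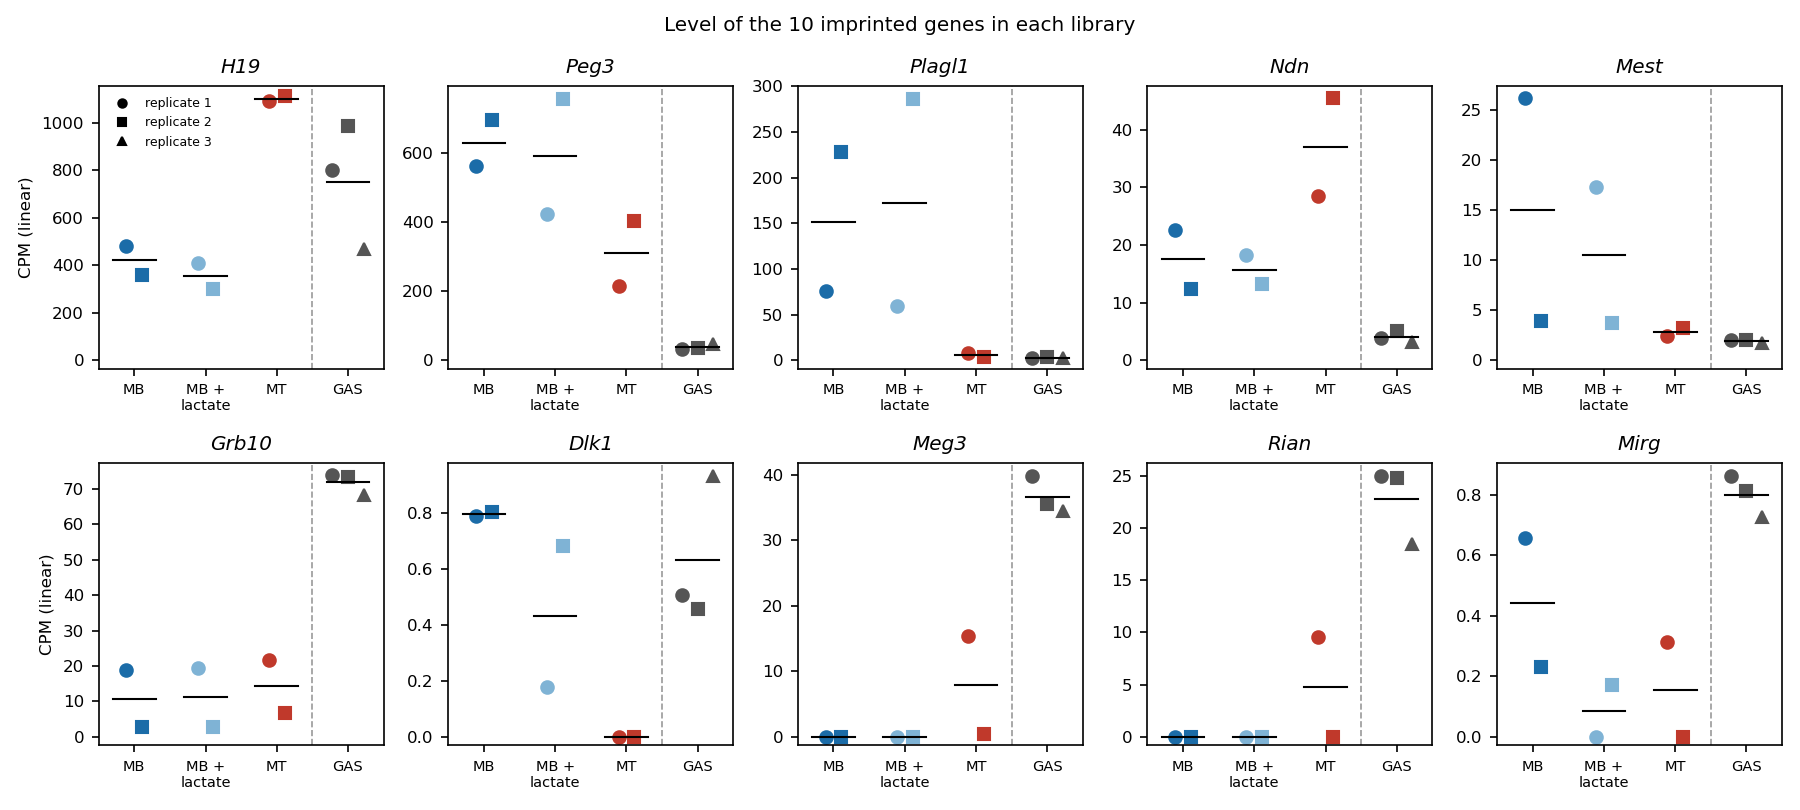
Level of each of the 10 imprinted genes in every library, in CPM on a linear axis that differs between panels, with the group mean as a line and GAS, which was made with another protocol, to the right of the dashed line. H19 was at 1090 and 1110 CPM in MT against 482 and 361 CPM in control MB, Plagl1 was at 7.80 and 3.56 CPM in MT against 75.9 and 228 CPM in control MB, and Meg3 and Rian had counts in GAS and MT replicate 1 and no count in MB.

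Between MB and MT, the network did not move in one direction. Plagl1 fell by 4.71 on the log2 scale, H19 and Ndn had higher and Peg3 and Mest lower values in MT without passing the test, and Grb10 differed more between replicates than between groups. Of the 10 genes, 6 passed edgeR's filter on low counts and were tested, and Dlk1, Meg3, Rian and Mirg did not pass it. The thresholds were an adjusted p under 0.05 from edgeR's quasi-likelihood test and an absolute log2FC over 0.5. Of the 6 genes tested, 0 were higher and 1 lower in MT, where 17.9% of all 12921 genes tested passed, 11.0% as higher and 6.86% as lower. The median log2FC was -0.30 over the 6 genes and 0.07 over all genes tested. In 5 of the 6 genes the MT libraries lay wholly above or below the MB libraries, and this was the case for 62.3% of all genes tested, so that it does not set these genes apart.

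Plagl1 (ENSMUSG00000019817, chr10:13060504-13131694, plus strand) encodes the zinc finger factor introduced above and is transcribed mainly from the paternal copy. It had 578 and 1987 counts in the MB libraries and 100 and 29 in the MT libraries, or 75.9 and 228 CPM against 7.80 and 3.56 CPM. The lower MB library was thus still well above the higher MT library, although the MB libraries differed 3.00-fold from each other. Its log2FC was -4.71 (SE 0.68, edgeR adjusted p = 0.00139), and the means were 152 ± 107 CPM (SD, n = 2) in MB and 5.68 ± 2.99 CPM (SD, n = 2) in MT. It passed in all 12 alternative fits, with log2FC between -5.44 and -3.80.

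H19 (ENSMUSG00000000031, chr7:142575529-142578143, minus strand) is a noncoding RNA transcribed mainly from the maternal copy. Its counts were 3671 and 3151 in MB and 13989 and 9073 in MT, or 482 and 361 CPM against 1090 and 1110 CPM. Both MT libraries were above both MB libraries, and the MT libraries differed by 1.02-fold. The log2FC of 1.39 (SE 0.52) did not pass the adjusted threshold (edgeR adjusted p = 0.0890), whereas it did with the DESeq2 Wald test (log2FC 1.39, DESeq2 adjusted p = 0.0139). H19 passed in 2 of the 12 alternative fits, the DESeq2 Wald test and a block with crossed replicate numbers. The crossed numbers were chosen after seeing the data. The log2FC lay between 1.13 and 1.51 over all 12. The edgeR adjusted p was 0.218 with the replicate block and 0.242 without a filter on low counts. H19 had the highest level of the 10 genes per length in every group, and it took between 70.7% and 78.3% of all counts of the network in MT and between 27.7% and 40.5% in MB.

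Igf2, the paternally expressed neighbor of H19, is not one of the 10 genes and is given because both share enhancers. It had 42 and 7 counts in the MB libraries and 480 and 1225 in the MT libraries, and both MT libraries were above both MB libraries. The mean was 3.16 ± 3.33 CPM (SD, n = 2) before and 93.9 ± 79.9 CPM (SD, n = 2) after differentiation, with a log2FC of 4.90 (SE 0.92, edgeR adjusted p = 0.00561). Igf2 in CPM was 1.14% and 0.222% of H19 in the MB libraries and 3.43% and 13.5% in the MT libraries, so the ratio differed between the groups and also between the MT replicates. In GAS it was between 2.69% and 3.83%.

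Mest (ENSMUSG00000051855, chr6:30723547-30748465, plus strand) encodes a protein of the alpha/beta hydrolase family and is transcribed mainly from the paternal copy. It had 199 and 34 counts in MB and 31 and 26 in MT, or 26.1 and 3.89 CPM against 2.42 and 3.19 CPM. The groups did not overlap, but the lower MB library was close to the MT libraries, and the distance rested on MB replicate 1. The log2FC was -2.41 (SE 0.86, edgeR adjusted p = 0.0785). It was -0.59 (edgeR adjusted p = 0.874) without MB replicate 1 and -3.28 (edgeR adjusted p = 3.77e-06) without MB replicate 2, where it passed. It also passed without MT replicate 2, with the DESeq2 Wald test and without a filter on low counts. Copg2 overlaps 912 bp of Mest on the opposite strand, 23.1% of its exonic length. Whether strand was used in counting is not given in the sources used here, and the value of Mest is therefore uncertain.

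Peg3 (ENSMUSG00000002265, chr7:6703892-6730431, minus strand) encodes a large zinc finger protein, is transcribed mainly from the paternal copy and is known as a gene of muscle stem cells. Its counts were 4283 and 6081 in MB and 2775 and 3278 in MT, or 563 and 697 CPM against 216 and 403 CPM. Both MT libraries were below both MB libraries. The log2FC of -1.03 (SE 0.51) did not pass (edgeR adjusted p = 0.194), and neither did it in any of the 12 alternative fits, in which the log2FC ranged from -1.69 to -0.65.

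Ndn (ENSMUSG00000033585, chr7:62346569-62350262, plus strand) encodes necdin, a protein of the MAGE family, and is transcribed mainly from the paternal copy in the Prader-Willi region. It had 172 and 108 counts in MB and 365 and 370 in MT, or 22.6 and 12.4 CPM against 28.5 and 45.4 CPM. The MT libraries lay above the MB libraries, with a narrow gap between the lower MT and the higher MB library. The log2FC was 1.08 (SE 0.53, edgeR adjusted p = 0.182) and did not pass in any alternative fit. It ranged from 0.55 without MT replicate 2 to 1.46 without MB replicate 1.

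Grb10 (ENSMUSG00000020176, chr11:11930508-12038683, minus strand) encodes an adaptor that binds and inhibits the insulin and IGF1 receptors. Its counts were 143 and 24 in MB and 280 and 54 in MT, or 18.8 and 2.75 CPM against 21.8 and 6.63 CPM. The groups overlapped, and in both of them replicate 1 was above replicate 2, by 6.83-fold in MB and by 3.29-fold in MT. The log2FC was 0.43 (SE 0.85, edgeR adjusted p = 0.767). Its sign rested on single libraries, as it was 2.23 without MB replicate 1, where it passed (edgeR adjusted p = 0.0355), -0.47 without MB replicate 2 and -0.69 without MT replicate 1.

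**Figure D2:**
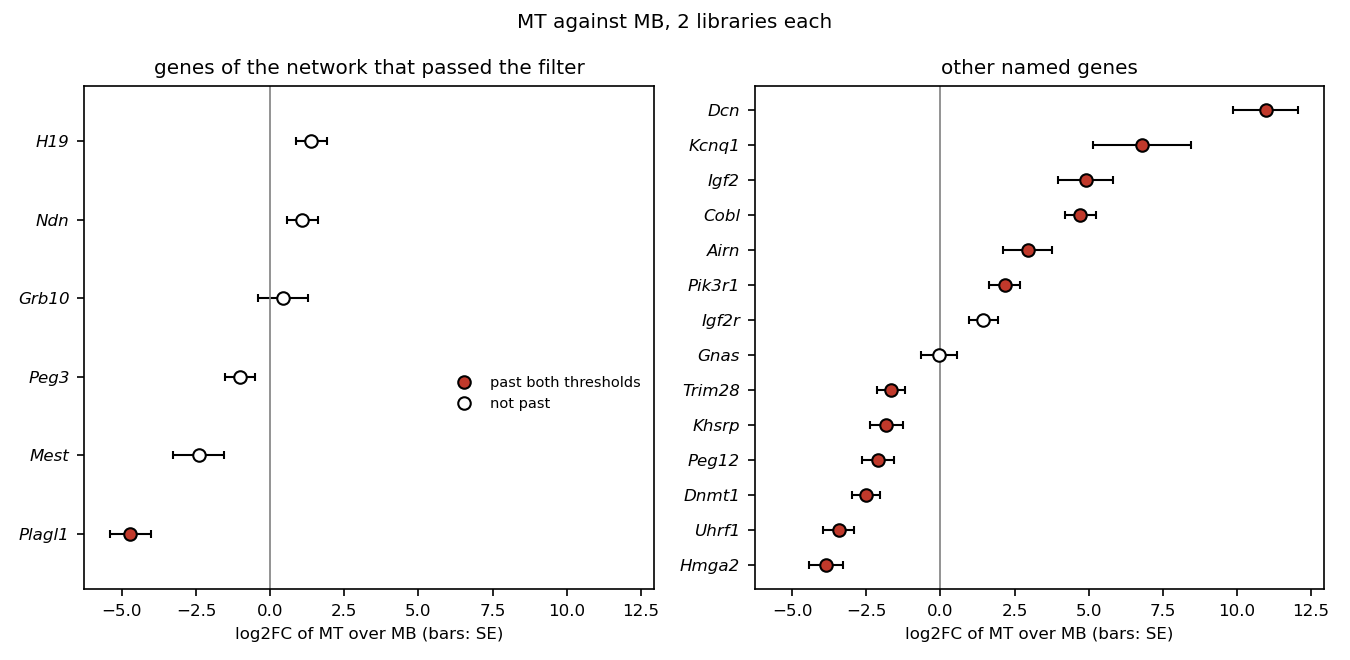
Log2FC of MT over MB with a standard error derived from the F statistic of edgeR's quasi-likelihood test (2 libraries per group). Shown are the 6 genes of the network that were tested and the other genes named in the text, with filled points past both thresholds. The point of Kcnq1, at 0 counts in MB, depends on the prior count of the fit. Of the 6 genes only Plagl1 passed, at -4.71, and the values of the other 5 lay between -2.41 and 1.39.

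The other 4 genes lie in the Dlk1-Dio3 domain of chromosome 12. Dlk1 (ENSMUSG00000040856, chr12:109452823-109463336, plus strand) encodes a transmembrane protein with EGF-like repeats and is transcribed from the paternal copy. The noncoding RNAs Meg3 (ENSMUSG00000021268, chr12:109541001-109571726), Rian (ENSMUSG00000097451, chr12:109603940-109661716) and Mirg (ENSMUSG00000097391, chr12:109729764-109749460) follow it on the plus strand and are transcribed from the maternal copy. All had at most 7 counts in any MB library, and the noncoding RNAs had more than 3 counts in MT replicate 1 and at most 3 in MT replicate 2.

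Meg3 had 197 counts in MT replicate 1 and 3 in MT replicate 2, and 0 counts in all 4 libraries of control and lactate-treated MB. Rian had 123 counts in MT replicate 1 and 0 in the other 5 cultured libraries. The level of both RNAs in MT was thus that of a single library. Rtl1, a coding gene on the opposite strand of the domain, had 19 counts in MT replicate 1 and 0 in the other 5 cultured libraries. With all counted genes kept, both passed (edgeR adjusted p = 2.65e-04 for Meg3 and 0.0287 for Rian). They also passed without MT replicate 2 (edgeR adjusted p = 1.82e-07 and 2.33e-05). Without MB replicate 1 or MB replicate 2, Meg3 passed (edgeR adjusted p = 0.00167 and 0.00136) and Rian did not (0.0703 and 0.0603), and neither was tested without MT replicate 1, since they then no longer passed the filter.

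MT replicate 1 had counts for 8784 annotated genes that had none in the other cultured libraries. The protein-coding genes among them had a median of 3.23 counts per kb of exon, and 90% of them had fewer than 18.2. Meg3 had 10.9 and Rian 6.75 counts per kb in this library, above 79.6% and 67.9% of these genes. The ratio of Meg3 to Rian counts was 1.60 in MT replicate 1 and between 1.43 and 1.87 in the GAS libraries. Of 118 genes annotated from Dlk1 to Dio3, 84 were listed both for GAS and for the cultured cells. Of these 84, 8 had a count in MT replicate 1, 1 in MT replicate 2, 2 in each control MB library and between 10 and 13 in the GAS libraries. In MT replicate 1 the microRNA genes of the domain held 47 counts, 41 of them on Mir654, and in MT replicate 2 they held 0. In the same library the summed level of 6 endothelial markers was 20.6 CPM, against 0.246 CPM in MT replicate 2 and between 146 and 163 CPM in GAS. That of 6 macrophage markers was 33.0 CPM, against 3.68 CPM in MT replicate 2 and between 34.8 and 41.8 CPM in GAS. The sums of 4 Schwann cell and 4 adipocyte markers were 6.94 and 3.66 CPM in MT replicate 1, against 0.982 and 0 CPM in MT replicate 2. In GAS they ranged from 19.3 to 36.5 and from 19.9 to 41.3 CPM. In MT replicate 1 Lep held 2.96 CPM of the adipocyte sum, and Plin1 was at 0. Of the endothelial markers Pecam1 was at 0.156 CPM there, against 42.3 to 43.2 CPM in GAS, and the others were between 1.87 and 5.69 CPM. The sum of 4 mural cell markers went the other way, with 146 CPM in MT replicate 1 and 250 CPM in MT replicate 2. It ranged from 242 to 264 CPM in GAS. Pdgfrb (110 and 203 CPM) and Notch3 (21.7 and 46.7 CPM) were lower in MT replicate 1 than in MT replicate 2. Myh11 (3.12 and 0.368 CPM) and Rgs5 (10.8 and 0.123 CPM) were higher. The part of the other genes of MT replicate 1 and of these markers in the counts of Meg3 and Rian was not tested.

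Dlk1 had 6 and 7 counts in the control MB libraries, 1 and 4 in the lactate-treated ones and 0 in both MT libraries. At 0.795 ± 0.010 CPM (SD, n = 2) in MB, it was at least 2.16-fold lower in MT when 3 counts per library are taken as the limit. With all counted genes kept, the edgeR adjusted p of Dlk1 was 0.568. Mirg had 5 and 2 counts in MB and 4 and 0 in MT, so that no difference was detectable at this depth.

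Other genes listed as imprinted were read from the same fit for comparison. Whether they are imprinted in these cells was not tested, since the counts do not tell the parental copies apart. Of 62 such genes, 60 were listed for the cultured cells, 39 were tested and 10 passed, 9 as higher and 1 as lower in MT, where 17.9% of all genes tested passed, 11.0% as higher and 6.86% as lower. Their median log2FC was 0.57, against 0.07 over all genes tested. Without MT replicate 1, 5 passed. Besides Igf2, the largest increases were those of Dcn, which encodes the matrix proteoglycan decorin (log2FC 10.97, SE 1.10), Cobl, which encodes an actin nucleator and neighbors Grb10 (4.72, SE 0.52), and Airn, the noncoding antisense RNA of Igf2r (2.95, SE 0.82). The potassium channel gene Kcnq1 had 19 and 12 counts in MT and 0 in both MB libraries, at least 3.75-fold more in MT. The adjusted p in edgeR's quasi-likelihood test was 1.74e-04 for Dcn, 2.72e-04 for Cobl, 0.0314 for Airn and 0.0201 for Kcnq1, and the calls of Airn and Kcnq1 were lost when either MB library or MT replicate 2 was left out or all counted genes were kept. That of Airn was also lost without MT replicate 1, and that of Kcnq1 in the fit of all 6 cultured libraries with a replicate block. Dcn is also one of the fibroblast markers, whose sum moved with MT as given above, and the part of these markers in the result was not tested.

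Peg12, a neighbor of Ndn in the Prader-Willi region, was the imprinted gene that was lower in MT. It had 49.5 and 90.6 CPM in the MB libraries and 11.6 and 21.0 CPM in the MT libraries, without overlap (log2FC -2.11, SE 0.53, edgeR adjusted p = 0.0206). Without MT replicate 1 it did not pass (edgeR adjusted p = 0.221). Igf2r, which encodes the receptor that clears IGF2, was at 69.1 and 34.9 CPM in MB and at 110 and 173 CPM in MT (log2FC 1.45, SE 0.49, edgeR adjusted p = 0.0633). It passed with the DESeq2 Wald test (0.0334), with all counted genes kept (edgeR adjusted p = 0.0391), with at least 10 counts in every library (0.0494) and without MB replicate 1 (0.0166), and its log2FC ranged from 0.93 to 1.90 when single libraries were left out. Gnas, which encodes a G protein subunit, had a log2FC of -0.05 (SE 0.60), and Cdkn1c, which encodes a cell cycle inhibitor, had 3 and 1 counts in MB and 13 and 7 in MT and was not tested.

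Of 11 genes whose products keep or read imprints, 8 were tested and 3 passed, all as lower in MT, as did 6.86% of all genes tested. These were Uhrf1 (log2FC -3.43, SE 0.51) and Dnmt1 (-2.51, SE 0.48), which copy DNA methylation at replication, and Trim28 (-1.65, SE 0.47), a corepressor of zinc finger proteins. Their adjusted p was 0.00173, 0.00617 and 0.0359 in edgeR's quasi-likelihood test. Without MT replicate 1 it was 0.0999 for Dnmt1 and 0.110 for Trim28, which then did not pass, and Trim28 also did not pass without MT replicate 2 (0.135) or MB replicate 1 (0.0537) or in the fit of all 6 cultured libraries (0.0630). Of 12 genes around the receptors that GRB10 inhibits, 11 were tested. Where 17.9% of all genes tested passed, 11.0% as higher in MT, 1 of these 11 passed, as higher. This was Pik3r1, a regulatory subunit of PI3 kinase, with a log2FC of 2.17 (SE 0.52, edgeR adjusted p = 0.0175, and 0.0835 without MT replicate 1).

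Of 7 genes of RNA-binding proteins and let-7 targets that are linked to H19, 5 were tested and all 5 had a log2FC below 0, as had 47.7% of all genes tested, and 2 passed as lower, against 6.86%. Hmga2, which encodes a chromatin protein of proliferating cells, fell by 3.86 on the log2 scale (SE 0.56), and the RNA-binding protein gene Khsrp fell by 1.83 (SE 0.56). Their adjusted p was 0.00149 and 0.0453 in edgeR's quasi-likelihood test, and the call of Khsrp was lost without MT replicate 1, MT replicate 2 or MB replicate 1 (0.0959 to 0.192), with at least 10 counts in every library (0.0611) and in the fit of all 6 cultured libraries (0.0511). Igf2bp1, Igf2bp2 and Igf2bp3, which encode RNA-binding proteins, had log2FC between -1.27 and -0.81 and did not pass.

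No change of the network was detected after addition of 10 mM sodium-L-lactate to MB. The same 6 genes were tested, and 0 of 6 passed the study's thresholds for this comparison, a nominal p under 0.01 with an absolute log2FC over 0.5, where 0% of the 11804 genes tested passed in edgeR's quasi-likelihood test. With edgeR and these thresholds, the study itself reported a small group of genes, some higher and some lower. Its methods do not name the edgeR test, and the source of this difference was not tested. At an unadjusted p under 0.05 there were 5 genes among all tested and 0 among the 6. This fit has no term for the replicate number. Differences between replicates 1 and 2 correlated across genes between control and lactate-treated MB (r = 0.713), so that this fit could miss changes. The lactate-treated libraries overlapped the control libraries in all 6 genes, and they did not overlap for 11.0% of all genes tested. The median log2FC was -0.11 over the 6 genes and -0.003 over all genes tested.

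H19 was at 482 and 361 CPM in control MB and at 409.8 and 298 CPM in lactate-treated MB, a log2FC of -0.25 (SE 0.39). Plagl1 was at 75.9 and 228 CPM in control MB and at 59.2 and 286 CPM in lactate-treated MB, a log2FC of 0.19 (SE 0.89). Peg3 was at 563 and 697 CPM in control MB and at 424 and 758 CPM with lactate, a log2FC of -0.08 (SE 0.50). The spread between replicates was larger than the difference between treatments in these 3 genes.

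The remaining 3 genes behaved likewise. Ndn was at 18.3 and 13.1 CPM with lactate (log2FC -0.14, SE 0.49), Mest at 17.2 and 3.75 CPM (log2FC -0.49, SE 0.99) and Grb10 at 19.4 and 2.90 CPM (log2FC 0.06, SE 1.07). The edgeR adjusted p was 1.0 for all 6 genes. The standard errors of 0.89 to 1.07 on the log2 scale for Plagl1, Mest and Grb10 in this fit, which has no term for the replicate number, leave wide intervals, so that the same level in both groups is not shown. With a replicate block the log2FC of Plagl1, Mest and Grb10 was -0.0074, -0.38 and 0.06, with standard errors of 0.27, 0.35 and 0.35. None of the 6 genes passed in that fit.

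The difference between replicates went the same way in control and lactate-treated MB in all 6 genes. Grb10 was higher in replicate 1, by 6.83-fold in control and 6.68-fold in lactate-treated MB, and Mest by 6.71-fold and 4.59-fold. H19 and Ndn were also higher in replicate 1, by between 1.34-fold and 1.83-fold. Plagl1 was higher in replicate 2, by 3.00-fold and 4.83-fold, and Peg3 by 1.24-fold and 1.79-fold. Both libraries of replicate 1 were those with the high share of ribosomal RNA counts given above, and the part of this share in the difference was not tested.

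**Figure D3:**
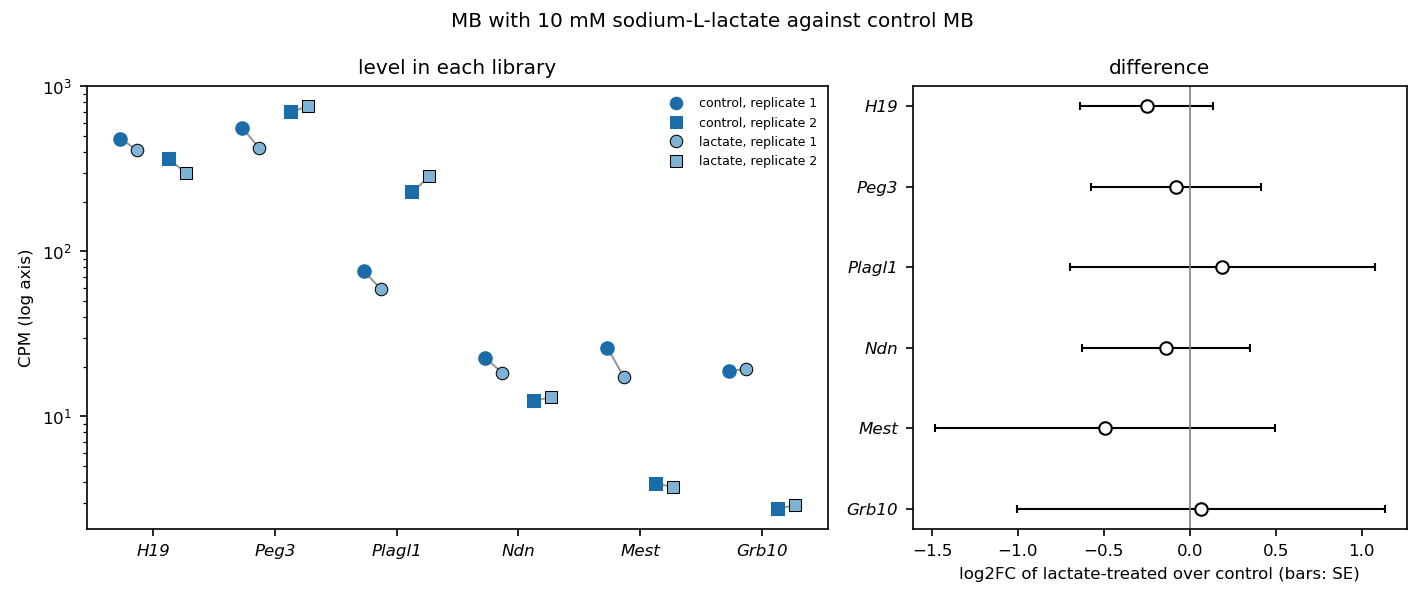
Left, level of the 6 tested genes in each library of control and lactate-treated MB, in CPM on a log axis, with lines joining libraries of the same replicate number. Right, log2FC of lactate-treated over control MB with a standard error derived from the F statistic of edgeR's quasi-likelihood test. The log2FC lay between -0.49 and 0.19, and Grb10, Mest and Plagl1 differed more between replicates 1 and 2 than between treatments.

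In GAS, all 10 genes had more than 3 counts in each of the 3 libraries. Levels between genes are compared as RPKM, the CPM divided by the exonic length in kb. H19 had 306 ± 106 RPKM (SD, n = 3), with 325, 401 and 191 RPKM in the single libraries, and was the gene with rank 109 among 36429 genes. Its ranks in MT and MB were 68 and 322. Grb10 was next in GAS, with 7.91 ± 0.35 RPKM (SD, n = 3), followed by Peg3 with 2.91 ± 0.62 RPKM (SD, n = 3) and Meg3 with 2.02 ± 0.16 RPKM (SD, n = 3).

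Rian had 1.25 ± 0.20 RPKM (SD, n = 3) and Ndn 1.10 ± 0.27 RPKM (SD, n = 3), and their libraries overlapped. Mest followed with 0.488 ± 0.047 RPKM (SD, n = 3) and Plagl1 with 0.331 ± 0.057 RPKM (SD, n = 3). Dlk1 and Mirg were lowest, with 0.112 ± 0.046 and 0.110 ± 0.010 RPKM (SD, n = 3), and they overlapped. Other neighbors in this order did not overlap.

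The order was another one in the cultured cells. In MB it was H19 (171 RPKM), Peg3 (47.2 RPKM), Plagl1 (19.4 RPKM), Ndn (4.73 RPKM), Mest (3.81 RPKM) and Grb10 (1.18 RPKM), with Ndn and Mest, and Mest and Grb10, overlapping. Dlk1 and Mirg were at 0.141 and 0.0607 RPKM, and Meg3 and Rian at 0. In MT it was H19 (448 RPKM), Peg3 (23.2 RPKM), Ndn (10.0 RPKM) and Grb10 (1.57 RPKM), followed by Plagl1 (0.726 RPKM) and Mest (0.711 RPKM), and from Grb10 down all neighbors overlapped. These orders were not tested between GAS and cultured cells.

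**Figure D4:**
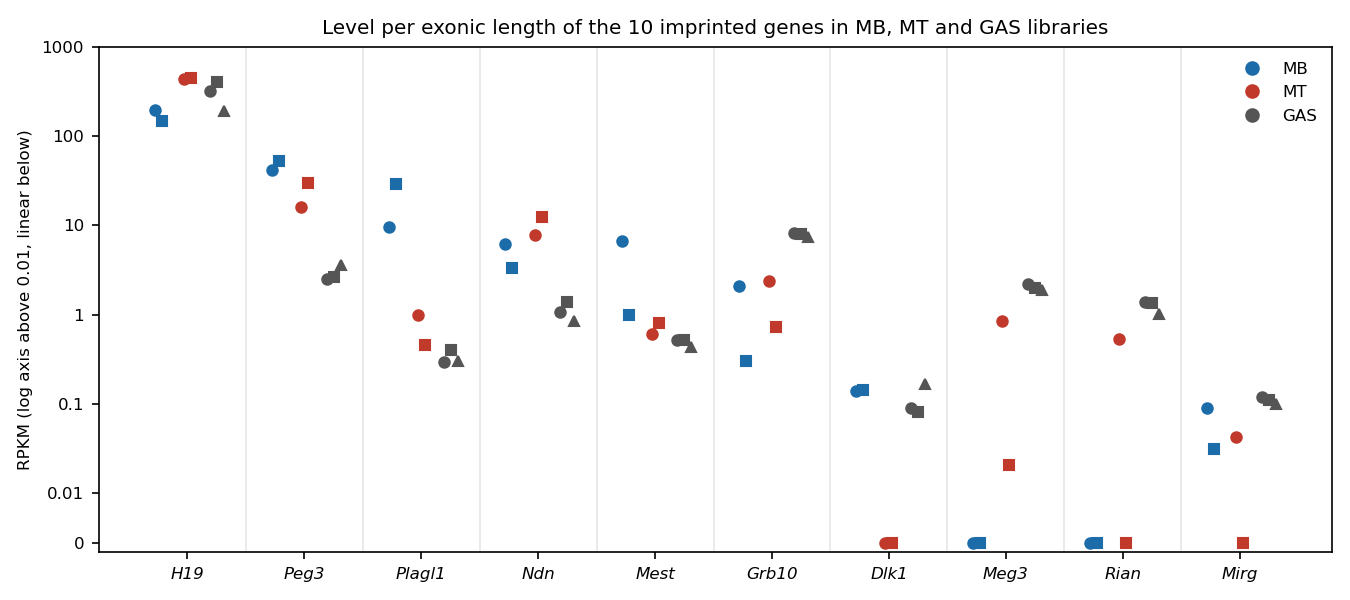
Level per exonic length of the 10 imprinted genes in every MB, MT and GAS library, in RPKM on an axis that is logarithmic above 0.01 and linear below it, where a symbol at 0 is a library without a count (circles, squares and triangles are replicates 1, 2 and 3). H19 was highest in all 3 groups, with means of 171 RPKM in MB, 448 RPKM in MT and 306 RPKM in GAS, Grb10 was the second highest gene in GAS and the sixth highest in MB, and Meg3 and Rian were at 0 in MB.

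The spread between GAS libraries differed among the genes. The coefficient of variation was 34.8% for H19, which was larger than in 96.5% of the 9874 genes with a mean over 1 RPKM. It was 24.4% for Ndn, 21.4% for Peg3, 16.4% for Rian, 7.79% for Meg3 and 4.46% for Grb10, against a median of 7.38% over these genes. H19 was lowest in GAS replicate 3, at 470 CPM against 799.6 and 986 CPM, and so was Igf2, at 18.0 CPM against 23.5 and 26.5 CPM. Peg3 was highest in the same library, at 48.3 CPM against 33.0 and 35.1 CPM.

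For H19, Peg3 and Plagl1, which had the highest mean CPM of the 10 genes over the 6 cultured libraries, the genes with the most similar profile over the 6 cultured libraries were sought by the Pearson correlation of log2(CPM + 1) among 13105 genes. St3gal5 (r = 0.9998), Pigc (r = 0.997) and Fech (r = 0.997) were most like H19, Gdpd1 (r = 0.996), Ccdc137 (r = 0.995) and Runx2os1 (r = 0.995) most like Peg3, and Ankle1 (r = 0.998), Wdhd1 (r = 0.997) and Il18rap (r = 0.994) most like Plagl1. An r over 0.9 was reached by 1566 genes for H19, 361 for Peg3 and 653 for Plagl1, so that such values are common over 6 libraries in 3 groups.

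The promoters, 250 bases before to 50 bases after the start, were found in the RefSeq table (GRCm38.p6) for 9 of the 10 genes, with 13 promoters in all. Promoters 2 and 3 of Mest are nearly the same window (chr6:30737800-30738099 and chr6:30737803-30738102) and are counted separately. Of these 13, 11 held more CG dinucleotides than the median of 7 over all promoters, with 26 in that of Plagl1 and 45 in the first of Grb10. The E-box CANNTG, which reads the same on both strands and is the type of site bound by myogenic factors, was found in 8 of the 13 and in 72.3% of all 32851 promoters. The promoter of Plagl1 held it at 2 sites, and those of Peg3, Ndn and Dlk1 at none. The motif GGGGCCCC, a palindrome, was found in 1 of the 13, that of Peg3, and in 1.08% of all promoters. These matches describe the letters of the windows only.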

How the data were processed

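RNA of mouse GAS (3 samples), MB, MT and lactate-treated MB (2 samples each) was sequenced. The authors trimmed reads with Trim Galore (0.6.6), aligned them to mm10 with HISAT2 (2.2.1) and counted them on genes with featureCounts of Subread (2.0.1), and deposited these raw counts by Ensembl gene. Annotation release, strand setting and the handling of multiple alignments are not given in the sources used here. The strand setting and multiple alignments can affect noncoding and overlapping genes.

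GENCODE M21 (GRCm38) gave symbols, coordinates and exonic lengths and held 36429 of the genes listed for GAS and 45229 of those for cultured cells. CPM were normalized with TMM for GAS and cultured cells separately and RPKM computed from exonic lengths. Each comparison was fitted on its 4 libraries with edgeR 4.0.16 (R 4.3.3) on all genes after filterByExpr, with the quasi-likelihood test, Benjamini-Hochberg adjustment and no term for the replicate number. Standard errors given with edgeR's log2FC are its absolute value divided by the square root of the F statistic of the quasi-likelihood test. CPM in the text use 1 normalization of all 6 cultured libraries, so that their ratios can differ slightly from fitted log2FC. Scripts were tested on simulated data. Alternatives were RLE size factors, DESeq2 1.42.0, no filter, at least 10 counts in every library, a replicate block, all 6 cultured libraries, other thresholds, leaving out each library and, chosen after seeing the data, crossed replicate numbers. Between 1 and 2 libraries per group remained when a library was left out, and the lone library is assumed to vary like the other group.

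The 10 genes and all lists were chosen with earlier results of these data known. Named besides the 10 genes were Igf2, Igf2r, Cdkn1c, Gnas and Rtl1, up to 5 other imprinted genes past the thresholds in each direction with the largest change and no overlap, up to 3 genes past the thresholds in each direction of the other lists, and the 3 genes most similar to each of the 3 genes with the highest mean CPM in culture.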

Additional observations from a re-analysis of the deposited data

How the results depend on the processing

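Of the network, 1 gene passed for MT against MB, and 3 with the DESeq2 Wald test, 4 without a filter on low counts and 1 to 4 when each library was left out. Among the 6 genes tested in the reported fit these were 3, 2 and 1 to 2, the others being Meg3 and Rian. Over all genes, 1425 were higher, 766 with at least 10 counts in every library and between 962 and 4118 when each library was left out, which gave between 270 and 1570 lower genes against 887 and between 5 and 13 other imprinted genes against 10. The replicate numbers are not stated to mark a shared animal or culture. Differences between replicates 1 and 2 correlated across genes with r = -0.130 for MT and MB and r = 0.713 for control and lactate-treated MB. The replicate block gave 1447 higher and 824 lower genes in MT, and 1 gene of the network passed. With crossed numbers 1192 were higher, 867 lower and 2 of the network passed. For lactate, where 0 genes were called, the replicate block gave 7 higher and 6 lower, all 6 libraries with the block 2 higher, the DESeq2 Wald test 1 higher, no filter 1 higher, and leaving out a library 1 to 176 higher and 0 to 1 lower. Of the network, 0 genes passed for lactate in any of these, and the block lowered the standard errors of Plagl1, Mest and Grb10 to 0.27, 0.35 and 0.35.

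Signs turned for values near 0. In MT against MB, Grb10 ranged from -0.69 to 2.23 and Gnas from -0.92 to 0.44 when libraries were left out, and Gnas was 0.0047 without a filter, 0.058 with at least 10 counts and 0.024 with all 6 libraries and the block. For lactate, the log2FC of Plagl1 was -0.0074 with the replicate block, and without single libraries it ranged from -1.48 to 1.33 for Plagl1, from -0.66 to 0.34 for Peg3, from -1.84 to 1.41 for Mest, from -0.44 to 0.33 for Ndn and from -1.73 to 1.99 for Grb10. The cause was not tested. With the longest transcript in place of the exonic length, Rian was above Meg3 and Mirg above Dlk1 in GAS, Mest above Ndn in MB and Rian above Meg3 in MT. Depth limits Dlk1, Meg3, Rian and Mirg, which had at most 7 counts in any MB library.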
